A study of Mus musculus with 17 samples.

Results

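The 10 genes described here are marker genes used to find liver cancer precursors and liver progenitor cells: Epcam, Prom1, Cd44, Cd24a, Ly6d, Sox9, Afp, Gpc3, Spp1 and Golm1. They were taken by gene symbol from the deposited tables, and all 10 had a row among the 17140 genes of the early hepatocellular carcinoma (HCC) and normal liver tables and among the 18185 genes of the Kupffer cell table. RNA was sequenced from mouse cells in 17 libraries. Early HCC cells came from mice induced with DEN, which in liver work usually means the carcinogen diethylnitrosamine, and gave 3 libraries with Mef2d knocked out (KO) and 3 with wild-type Mef2d (WT). MEF2D, its product, is a MEF2-family transcription factor. Another 3 libraries came from normal liver cells. Kupffer cells, which are macrophages resident in the liver, came from what the labels call DEN-induced murine PME, an abbreviation they do not spell out, and gave 4 libraries labelled KC1 and 4 labelled KC2. The KO, WT, KC1 and KC2 groups thus all carry the DEN induction, which the normal liver group is not said to have. The labels give no strain, age, sex or time after induction and do not say how Mef2d was disrupted. The sheet name of the KO and WT counts contains the words sh_vs_ctrl, which the labels do not explain, so KO is used below as the name of the label. The labels also do not say whether replicates came from separate animals. The p-values below thus rest on library-to-library spread alone, possibly technical. That spread, as the common biological coefficient of variation, was 0.034 in the early HCC and normal liver libraries and 0.267 in the Kupffer cell libraries.

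EpCAM, CD133 (the product of Prom1), CD44 and CD24 are surface proteins by which bile duct cells, liver progenitors and stem-like tumour cells are sorted or stained, and LY6D is a small surface protein of the Ly6 family that in mice marks B cell progenitors. SOX9 is a transcription factor of the developing bile ducts and of adult progenitor cells. Alpha-fetoprotein (Afp) and glypican 3 (Gpc3) are made by the fetal liver, fall silent after birth and return in many liver tumours, while osteopontin (Spp1) is a secreted ligand of CD44 and of integrins and GOLM1, also known as GP73, is a Golgi membrane protein that is shed into serum in liver disease.

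The windows upstream of Epcam, Afp and Spp1 are shown because these were the members highest in early HCC over normal liver cells. Each line gives the 250 bases before the start of the gene, from RefSeq on GRCm38.p6, with matches to the searched motifs in capitals.
Epcam, chr17:87635729-87635978, plus strand: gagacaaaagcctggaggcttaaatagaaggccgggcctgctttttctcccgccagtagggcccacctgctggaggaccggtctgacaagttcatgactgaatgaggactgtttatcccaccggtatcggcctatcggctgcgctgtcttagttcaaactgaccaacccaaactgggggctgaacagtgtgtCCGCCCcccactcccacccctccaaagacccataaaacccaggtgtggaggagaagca
Afp, chr5:90490464-90490713, plus strand: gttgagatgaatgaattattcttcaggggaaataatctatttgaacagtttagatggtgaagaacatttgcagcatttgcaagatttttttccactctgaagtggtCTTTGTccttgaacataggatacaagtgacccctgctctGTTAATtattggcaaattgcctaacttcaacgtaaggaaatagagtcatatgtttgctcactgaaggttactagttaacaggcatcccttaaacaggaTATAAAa
Spp1, chr5:104434861-104435110, plus strand: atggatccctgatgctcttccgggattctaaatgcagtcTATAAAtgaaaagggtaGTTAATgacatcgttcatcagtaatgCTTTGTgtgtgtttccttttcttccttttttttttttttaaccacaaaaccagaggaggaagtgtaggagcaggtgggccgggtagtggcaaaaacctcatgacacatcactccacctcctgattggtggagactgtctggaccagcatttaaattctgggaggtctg
Motifs were searched on both strands in windows from 250 bases before to 50 bases after each start. Windows were found for 7 of the 10 members, 9 windows in all. Epcam held a GC box (GGGCGG, which 35.7% of 32851 mouse promoter windows hold) at -58, read on the opposite strand. Afp and Spp1 both held a TATA box (TATAAA, 13.6% of windows), at -7 and -211. They also both held an HNF1 motif (GTTAAT, 7.10%), at -105 and -194, and a SOX motif (ACAAAG, 18.7%), at -144 and -168, the latter on the opposite strand in both. RefSeq starts Afp at 90490714 and GENCODE at 90490737, so the distance of its TATA box depends on the annotation. The AP-1 motif TGANTCA (7.81%) was found in both windows of Prom1. The MEF2 consensus, which 3.19% of windows hold and which can overlap TATAAA, was in 0 of the 9 windows. These matches describe letters, not bound sites.

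Expected counts summed to 16604606 to 17683298 per early HCC library, 18467849 to 18637765 per normal liver library and 15353249 to 16743459 per Kupffer cell library. Levels are given as CPM, a gene's share of its library scaled by TMM, and 3 counts in a single library equalled 0.150 to 0.208 CPM. Mef2d itself was at 66.2 ± 2.71 CPM (SD, n = 3) in KO and 99.99 ± 3.21 CPM (SD, n = 3) in WT libraries, a 1.51-fold lower level in KO (adjusted p = 1.21e-08, edgeR), and at 56.9 ± 5.11 CPM (SD, n = 3) in normal liver libraries, so its transcript was reduced but not absent. The extraction protocol names hepatocytes, but Alb, which encodes albumin, stood at 2.40 CPM in the normal liver libraries, and the 8 of 12 hepatocyte markers with a row summed to 128 to 137 CPM there, most of it Hnf4a at 119 CPM. Ttr, Serpina1b, Fga and Fgb had no row. Only genes with reads in some KO or WT library are listed, so the hepatocyte sum in normal liver may be too low. The 9 cholangiocyte markers all had a row. They summed to 4356 to 4530 CPM in normal liver, 125 to 137 CPM in WT and 224 to 232 CPM in KO libraries, led in normal liver by the keratins Krt8 (1681 CPM), Krt18 (1231 CPM) and Krt19 (1082 CPM). The hepatocyte markers summed to at most 2.71 CPM in every early HCC library. Normal liver is used below as the name of the label. Counting only markers with a row, macrophage markers summed to at most 21.0 CPM, endothelial markers to at most 1.61 CPM and stellate markers to at most 15.8 CPM in any of these 9 libraries. The part of cell make-up in the results was not tested, and in bulk libraries fewer cells of a type and less RNA per cell cannot be told apart.

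Against normal liver cells, WT early HCC cells held more Epcam, Afp and Spp1 and less Cd44, Cd24a, Golm1 and Sox9. Of the 10 markers, 7 had enough counts to be tested. Among these, 3 were higher and 4 lower in WT. Over all 12697 genes tested in this comparison, 43.8% were higher and 43.8% lower at an adjusted p under 0.05 (edgeR's quasi-likelihood test), so a call by itself is common here and the sizes carry the description. Prom1, Ly6d and Gpc3 were at or near 0.

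KO cells mostly lay above WT cells in these markers, by smaller steps than those between WT and normal liver except for Cd44. Epcam and Cd44 rose the most, to 2.38 and 2.12 times the WT level, Spp1, Cd24a and Afp rose by less than 1.3-fold, and Golm1 fell. Of the 10 markers, 6 had enough counts, with 5 higher and 1 lower in KO, against 32.5% of 12093 genes higher and 31.7% lower. Both normal liver comparisons use the same normal libraries, and the KO comparison uses the same WT libraries, so their values are set side by side and not counted as independent. In KO against normal liver, 7 markers were tested, with 4 higher and 3 lower, against 44.3% of 12657 genes higher and 42.9% lower.

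**Figure D1:**
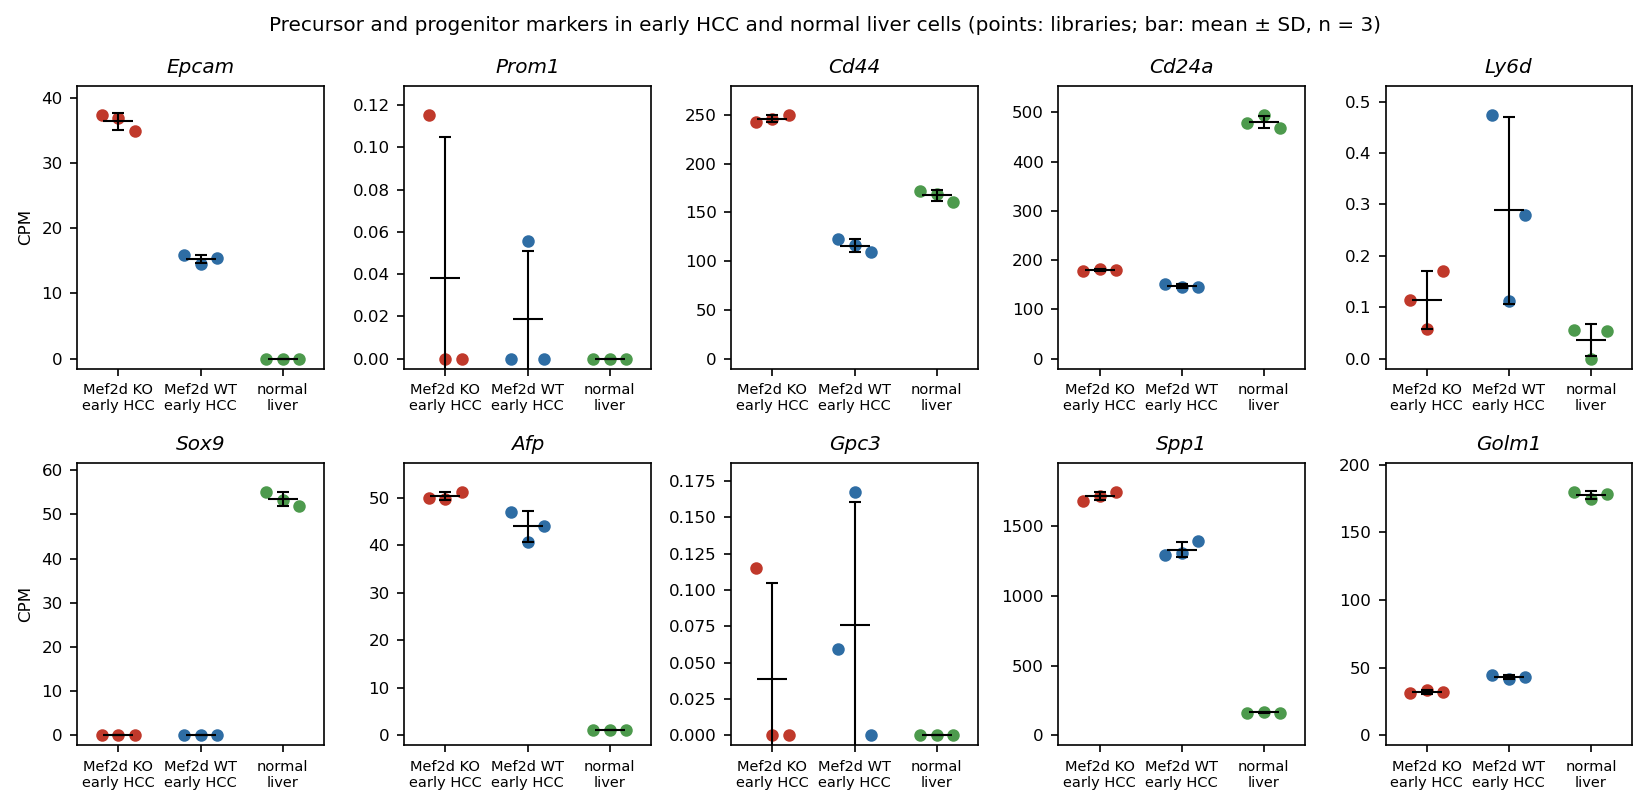
Level of each marker in CPM (vertical axis, linear, 1 scale per gene) in the 3 KO, 3 WT and 3 normal liver libraries; points are libraries and bars the mean ± SD, cut at the axis where they run below 0. Epcam is at 0 in all 3 normal liver libraries, Sox9 is near 0 in all 6 early HCC libraries, and Prom1, Ly6d and Gpc3 stay under 0.5 CPM throughout.

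Among the surface proteins, Epcam (gene 17075, on GRCm38 chromosome 17 from 87635979 to 87651129), the epithelial adhesion molecule, measured 37.3, 36.9 and 34.9 CPM in KO libraries against 15.9, 14.6 and 15.5 CPM in WT libraries. It had 0 counts in all 3 normal liver libraries. All KO libraries lay above all WT libraries, and the KO to WT difference was a log2 fold change of 1.25 ± 0.07 (SE, adjusted p = 8.12e-11, edgeR). With the normal group put at a group floor of 3 counts, Epcam was at least 278-fold higher in WT and at least 662-fold higher in KO than in normal liver. These bounds cover counting error only, as the reads carried no molecular identifiers.

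Cd44 (gene 12505, on chromosome 2 from 102811141 to 102901665), the hyaluronan receptor, was at 243, 246 and 250 CPM in KO, at 123, 116 and 109 CPM in WT and at 172, 169 and 161 CPM in normal liver libraries. The 3 groups did not overlap, and normal liver lay between the early HCC groups. Cd44 was the single tested marker that lay on opposite sides of normal liver in KO and WT: it was 1.47-fold higher in KO (adjusted p = 1.14e-10) and 1.44-fold lower in WT (adjusted p = 5.21e-10, edgeR for both). KO against WT gave a log2 fold change of 1.08 ± 0.04 (SE, adjusted p = 7.76e-14, edgeR).

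Cd24a (gene 12484, on chromosome 10 from 43578284 to 43584265), a small mucin-like surface protein, ran the other way from Epcam against normal liver. It was at 177, 182 and 179 CPM in KO, at 152, 146 and 146 CPM in WT and at 477, 494 and 469 CPM in normal liver libraries. Normal liver lay far above both, 3.25-fold over WT (adjusted p = 2.60e-19) and 2.68-fold over KO (adjusted p = 3.41e-18, edgeR for both), and the step from WT to KO was 1.21-fold upward (log2 0.28 ± 0.04, SE, adjusted p = 1.25e-06, edgeR). Cd24a has processed copies elsewhere in the mouse genome, so how its reads were assigned is uncertain.

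Prom1 (gene 19126, on chromosome 5 from 43993620 to 44102032) had 2 counts over the KO, 1 over the WT and 0 over the normal liver libraries, too few for a fold. Ly6d (gene 17068, on chromosome 15 from 74762056 to 74763620) had 6 counts in KO, 15 in WT and 2 in normal liver. The ratio of its counts, WT to normal and scaled for library size, was 7.78 (exact 95% interval 1.81 to 70.1), and KO to normal gave 3.12 (0.559 to 31.6). These intervals cover counting error only and not the spread between libraries. Neither gene passed the filter on low counts in these comparisons, and a level this near the floor does not show that the protein is absent.

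Sox9 (gene 20682, on chromosome 11 from 112782224 to 112787760) marked the normal liver libraries. It was at 55.1, 53.2 and 52.0 CPM there, against 0.115, 0.115 and 0.0566 CPM in KO and 0.118, 0.0558 and 0.112 CPM in WT, which is 5 counts over each early HCC group. Sox9 was 560-fold lower in WT (adjusted p = 1.17e-20) and 559-fold lower in KO (adjusted p = 1.20e-20, edgeR for both) than in normal liver. No difference between KO and WT was detectable at this depth, where Sox9 was too low for the filter (adjusted p = 0.999 without the filter, edgeR).

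Of the oncofetal and secreted markers, Afp (gene 11576, on chromosome 5 from 90490737 to 90508907) was at 49.96, 49.7 and 51.3 CPM in KO and at 47.1, 40.7 and 44.1 CPM in WT libraries, while normal liver held 1.10, 1.05 and 1.15 CPM. Early HCC cells thus held 40.0 times the normal level in WT (adjusted p = 1.96e-19) and 45.8 times in KO (adjusted p = 8.14e-20, edgeR for both). The rise from WT to KO was 1.14-fold (log2 0.20 ± 0.05, SE, adjusted p = 0.00307, edgeR). Without WT replicate 2, the lowest of the WT libraries, this difference was 0.13 on the log2 scale and no longer passed (adjusted p = 0.0547, edgeR).

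Spp1 (gene 20750, on chromosome 5 from 104435118 to 104441050), which encodes osteopontin, was the most abundant marker in early HCC cells, at 1684, 1719 and 1748 CPM in KO and 1296, 1311 and 1392 CPM in WT. Normal liver libraries held 163, 167 and 162 CPM. No groups overlapped, and Spp1 was 8.14-fold higher in WT (adjusted p = 1.06e-22) and 10.5-fold higher in KO (adjusted p = 3.12e-23, edgeR for both) than in normal liver. KO exceeded WT by 0.37 ± 0.03 on the log2 scale (SE, adjusted p = 1.02e-08, edgeR), a fold of 1.29.

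Golm1 (gene 105348, on chromosome 13 from 59634626 to 59675811) was the single tested marker that was lower in KO than in WT. It was at 30.9, 33.6 and 31.7 CPM in KO, at 44.3, 41.5 and 43.0 CPM in WT and at 180.1, 175 and 178 CPM in normal liver. The levels therefore stepped down from normal liver to WT (4.14-fold, adjusted p = 2.37e-19) and from WT to KO (log2 -0.42 ± 0.05, SE, adjusted p = 5.19e-07, edgeR for both). Golm1 overlaps Naa35 on the opposite strand, and it is not given whether the counting used strand, so reads of both genes may be mixed. Gpc3 (gene 14734, on chromosome X from 52272426 to 52613950), the glypican used as an HCC marker, had 2 counts over KO, 4 over WT and 0 over normal liver libraries, at or near the floor.

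**Figure D2:**
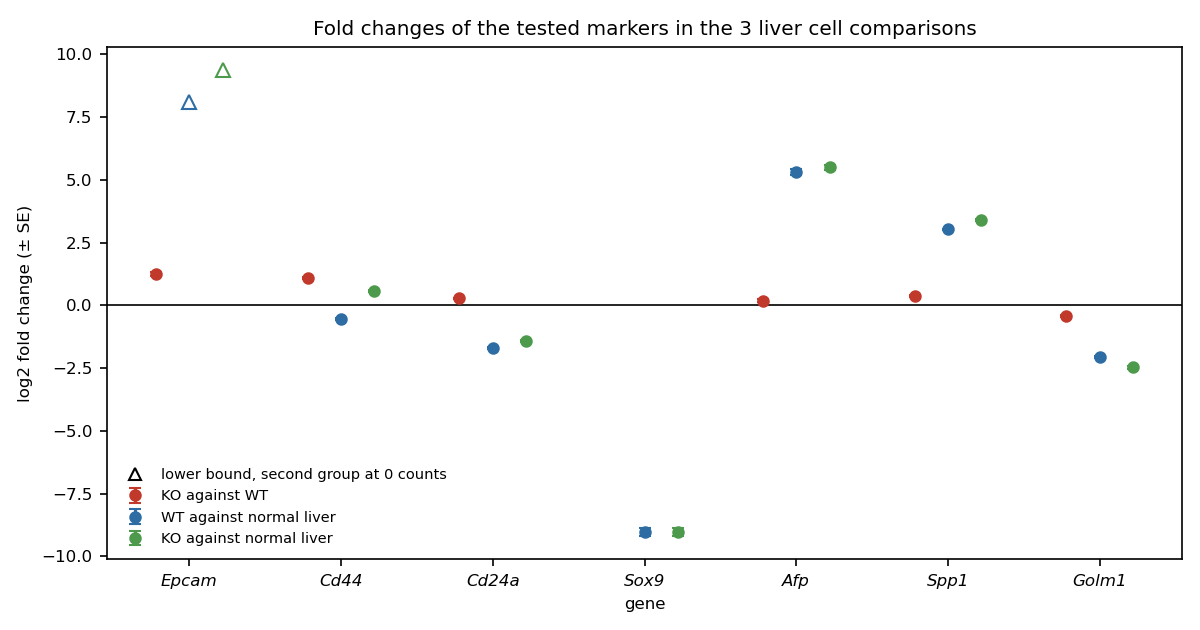
Log2 fold change ± SE (vertical axis) of the 7 tested markers in KO against WT, WT against normal liver and KO against normal liver; open triangles are lower bounds for Epcam, which had 0 counts in normal liver. Sox9 lies at about -9.03 in both early HCC groups against normal liver, Afp at 5.31 and 5.51, and Cd44 is the gene whose normal liver differences have opposite signs.

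Levels of different genes can be compared only per length. In CPM per kilobase of exon, Spp1 led in both early HCC groups (1042 in KO and 809 in WT), ahead of Cd24a (69.5 and 57.3), Cd44 (36.3 and 17.1), Afp (14.9 and 13.0), Epcam (16.6 and 6.97) and Golm1 (7.24 and 9.71). Epcam thus stood above Afp and Golm1 in KO and below both in WT. Normal liver had another order, with Cd24a first at 186, then Spp1 at 99.3, Golm1 at 40.2, Cd44 at 24.7, Sox9 at 12.9 and Afp at 0.326 CPM per kilobase. In each of the 3 groups, the means of neighbours in these orders were further apart than their SD.

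Genes with the pattern most like that of a marker were sought for the 4 markers whose group means spanned the widest range, by the distance between centred mean log2(CPM + 1) values over the KO, WT and normal liver groups, among 12914 genes. With only 3 group means, such likeness is easy to reach. Nearest to Sox9 were Arhgap42 (distance 0.0112) and Pcsk6 (0.0201), and 48 genes lay within 0.25. Epcam had just 1 gene that near: Nbl1 (0.158), at 42.2, 18.8 and 0.348 CPM in KO, WT and normal liver, followed by Vcan (0.385) at 102, 58.6 and 1.56 CPM. Hmga1b (0.0348) and Mb21d2 (0.0611) were nearest to Afp, and St6galnac4 (0.0315) and Klc3 (0.0401) to Spp1.

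The genes around these markers were described as lists by function. Each count below stands beside the shares over all tested genes. These were 32.5% higher and 31.7% lower in KO against WT, and 43.8% higher and 43.8% lower in WT against normal liver. In KO against WT, 8 of 13 tested biliary and progenitor genes were higher and 3 lower, with a median log2 difference of 0.58 beside 0.00 over all genes. The tight junction gene Cldn4 rose 6.43-fold, to 1.95 ± 0.24 CPM, and the keratin Krt23 rose 5.01-fold, to 1.16 ± 0.39 CPM (SD, n = 3, adjusted p = 7.57e-06 and 0.00156, edgeR). The tetraspanin Tspan8, a partner of EpCAM, fell 2.93-fold to 1.85 CPM and the adhesion gene Ncam1 fell 2.13-fold. The same list was lower against normal liver, with 11 of 13 tested genes lower and 2 higher in WT and a median of -5.07. There E-cadherin (Cdh1) was 1302-fold and Krt7 1138-fold lower, at 0.112 and 0.360 CPM in WT against 146 and 409.6 CPM in normal liver. These folds are imprecise, as they rest on 6 and 19 counts over the WT group. The 2 higher genes were Foxl1 and Muc1, and without WT replicate 3 only 1 gene was higher.

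Of the partners and proteases of EpCAM, 3 of 10 were higher and 6 lower in KO. Myc, which EpCAM signalling is known to induce, rose 1.44-fold (166 against 115 CPM). Fhl2, the adaptor that binds the released EpCAM tail, fell 3.46-fold, from 48.7 ± 2.5 to 14.05 ± 1.6 CPM (SD, n = 3, adjusted p = 8.45e-14, edgeR). Against normal liver, 10 of 12 were lower and 2 higher in WT. Bace1, a secretase, was 9.67-fold higher (413 against 42.8 CPM) and Cd9, a tetraspanin, 1.42-fold higher, while the protease inhibitor Spint2 was 403-fold lower. The Spint2 fold is imprecise, as it rests on 4 counts over the WT group.

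Of the partners of CD44 and osteopontin, 6 of 16 were higher and 6 lower in KO, near the shares over all genes (32.5% and 31.7%). Cd74, a receptor that pairs with CD44, rose 4.42-fold but only to 2.998 ± 1.20 CPM, and the osteopontin-binding integrin Itgb3 rose 3.31-fold to 2.98 CPM. The hyaluronan synthase Has3 fell 3.75-fold and the matrix protease Mmp9, which binds CD44, fell 3.37-fold, from 79.2 ± 3.9 to 23.5 ± 1.1 CPM (SD, n = 3, adjusted p = 1.13e-14, edgeR). Against normal liver, 13 of 16 were lower in WT and 3 higher. Mmp9 had 3 counts over the normal liver group against 4169 in WT, and Mmp14 was 519-fold lower, with 13 counts over the WT group.

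In the SOX9, Notch and YAP list, 7 of 15 genes were higher and 4 lower in KO. Sox4, a SOX factor of biliary development, rose 2.79-fold, from 78.7 ± 3.3 to 220 ± 6.4 CPM, and the Notch ligand Jag1 rose 2.05-fold (SD, n = 3, adjusted p = 7.84e-16 and 1.52e-12, edgeR), while the receptor Notch1 fell 1.82-fold and Tead1, the DNA-binding partner of YAP, fell 1.57-fold. Against normal liver, 12 of 17 were lower and 3 higher in WT. Ccn2, a YAP target, was 571-fold lower at 0.912 CPM, while Tead2 had 1516 counts in WT against 1 in normal liver.

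Among regulators of Afp and its neighbours in the albumin locus, 3 of 8 were higher and 2 lower in KO, near the shares over all genes (32.5% and 31.7%). Without KO replicate 2, KO replicate 3 or WT replicate 1, 3 were higher and 1 lower, and without WT replicate 2, 2 were higher and 1 lower. Zbtb20, a repressor of Afp after birth, rose 1.75-fold (19.1 against 10.9 CPM). Against normal liver, 9 of 14 were lower and 5 higher in WT. The liver factors Hnf4a (793-fold) and Foxa2 (3 counts in WT against 1909) were lower, and Zfhx3, known as a repressor of the Afp promoter, was 294-fold higher at 37.8 ± 3.8 CPM (SD, n = 3, adjusted p = 3.66e-17, edgeR). The Hnf4a fold rests on 8 counts over WT and the Zfhx3 fold on 7 counts over normal liver, so both sizes are imprecise.

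Gpc3 had almost no counts, but its relatives did. Gpc1, another glypican, measured 906 ± 25 CPM in KO libraries and 611 ± 19 CPM in WT libraries against 0.696 ± 0.39 CPM in normal liver (SD, n = 3), which is 1.48-fold higher in KO than in WT and 877-fold higher in WT than in normal liver (adjusted p = 7.97e-10 and 6.44e-24, edgeR). In this list of glypicans, syndecans and heparan sulphate enzymes, 8 of 11 were higher and 3 lower in WT than in normal liver, and 2 of 11 were higher and 5 lower in KO than in WT. Notum, also in this list, fell 2.14-fold in KO (45.1 to 21.0 CPM), and the syndecan Sdc4 fell 1.65-fold (491 to 298 CPM).

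The Ly6 family, to which Ly6d belongs, had 4 of 12 genes higher and 6 lower in KO, and 8 of 13 higher and 4 lower in WT than in normal liver. Ly6a, the stem cell antigen Sca-1, was at 206 ± 4.5 CPM in WT, 97.4 ± 1.5 CPM in KO and 0.329 ± 0.094 CPM in normal liver (SD, n = 3), which is 627-fold higher in WT than in normal liver (adjusted p = 5.75e-24, edgeR). Plaur, the urokinase receptor, rose 1.90-fold in KO. Several Ly6 genes are near-identical copies, so their single values are uncertain. Of the Golgi genes set beside Golm1, 5 of 9 were higher and 0 lower in KO (1 lower without WT replicate 2 or WT replicate 3), and 5 of 9 were higher and 4 lower in WT than in normal liver. Its paralog Golm2 went against Golm1 between WT and normal liver: it was 80.4-fold higher in WT (42.8 against 0.532 CPM). Of the other oncofetal and tumour genes, 3 of 9 were higher and 2 lower in KO, where the fetal growth factor Igf2 fell 3.88-fold (40.8 to 10.5 CPM), the aldo-keto reductase Akr1c18 rose 3.83-fold and the chromatin protein Hmga2 rose 1.35-fold. Against normal liver, 5 of 11 of these were higher and 6 lower in WT. Hmga2 was highest in normal liver, at 796 CPM against 148 CPM in WT and 201 CPM in KO.

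**Figure D3:**
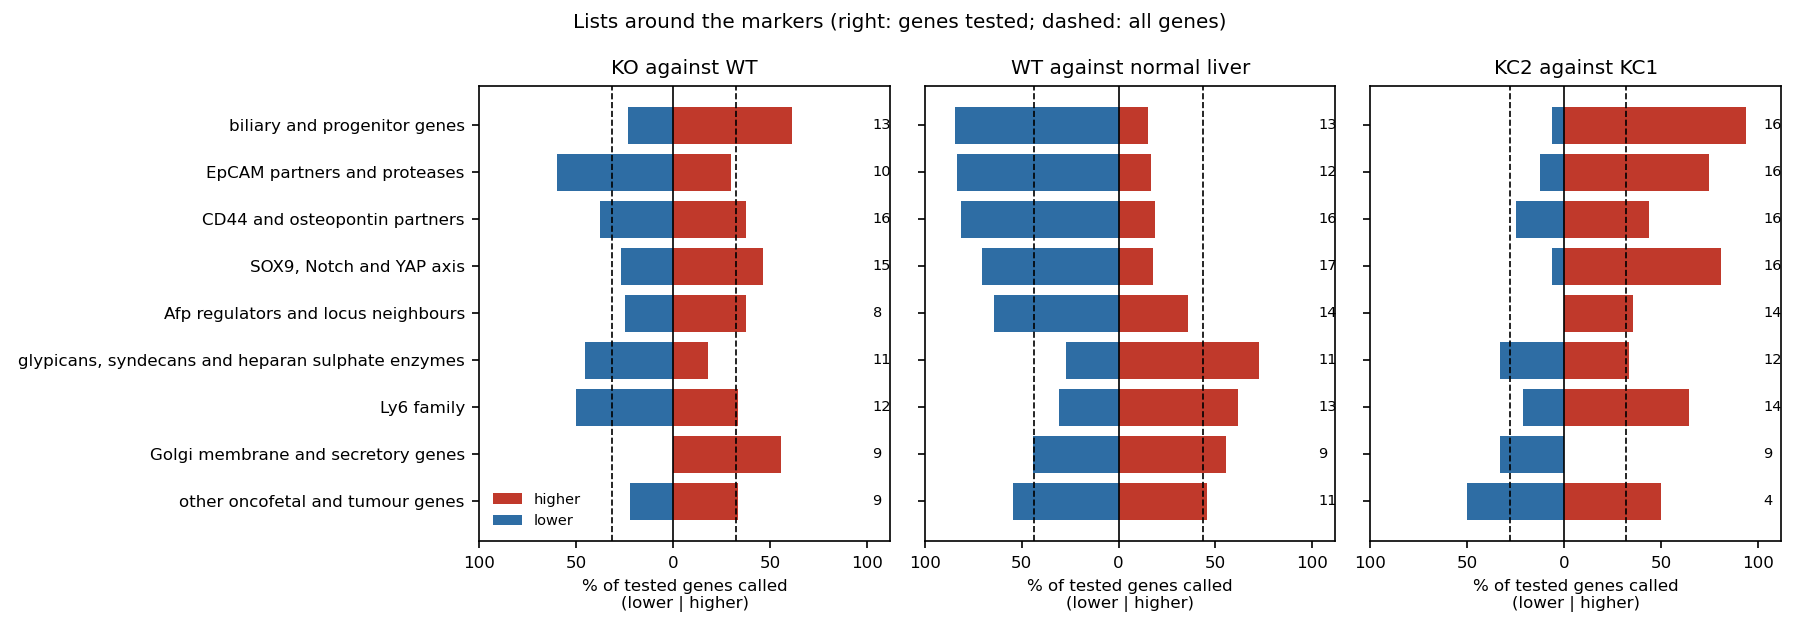
Share of tested genes of each list called higher (right, red) or lower (left, blue) at an adjusted p under 0.05, in percent, for KO against WT, WT against normal liver and KC2 against KC1; the number tested is at the right edge of each row and dashed lines give the share over all genes. Biliary and progenitor genes show 8 of 13 higher in KO, 11 of 13 lower in WT against normal liver and 15 of 16 higher in KC2.

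In KO against normal liver, beside 44.3% of all tested genes higher and 42.9% lower, the same lists gave 5 higher and 11 lower of 17 biliary and progenitor genes, 2 and 8 of 12 EpCAM partners, 5 and 12 of 17 CD44 and osteopontin partners, 3 and 11 of 16 in the SOX9, Notch and YAP list and 5 and 9 of 14 Afp regulators. For glypicans and syndecans 7 were higher and 3 lower of 11, for the Ly6 family 7 and 3 of 11, for Golgi genes 6 and 3 of 9 and for the other oncofetal genes 3 and 7 of 10. Without normal liver replicate 3, 3 biliary and progenitor genes were higher and 10 lower.

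Kupffer cells were the second setting in which the markers were measured. KC2 libraries held more Epcam, Prom1, Cd24a, Ly6d, Sox9 and Spp1 than KC1 libraries and less Cd44 and Afp, so 6 of the 9 tested markers were higher, 2 lower and Golm1 not called, against 31.9% of 12774 genes higher and 27.9% lower. These libraries varied far more than the liver cell libraries, and KC2 replicate 1 stood apart from the others. Its summed macrophage markers were 4194 CPM, against 19942 to 24136 CPM in KC2 replicates 2 to 4 and 36772 to 47193 CPM in KC1. Without it, all 10 markers were tested and 8 were called, since Gpc3 then passed the filter and was higher in KC2 (adjusted p = 0.00146, edgeR), while Prom1 no longer passed.

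**Figure D4:**
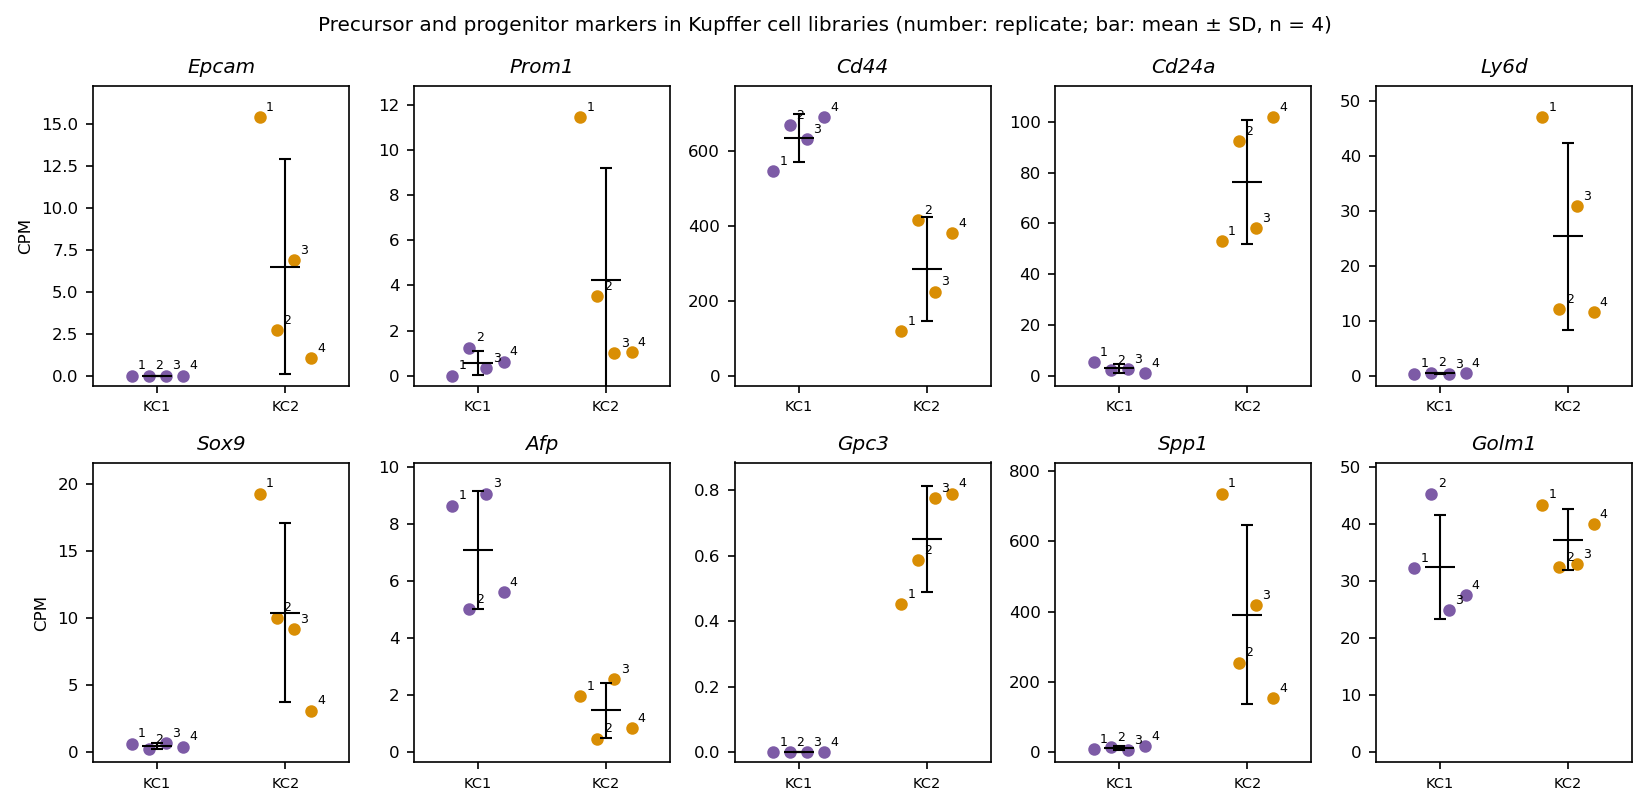
Level of each marker in CPM (vertical axis, linear, 1 scale per gene) in 4 KC1 and 4 KC2 libraries; points are libraries, numbers the replicate and bars the mean ± SD, cut at the axis where they run below 0. KC2 replicate 1 is highest for Epcam, Prom1, Ly6d, Sox9, Spp1 and Golm1 and lowest for Cd44, Cd24a and Gpc3 among the KC2 libraries.

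Epcam had 0 counts in all 4 KC1 libraries and was at 15.4, 2.70, 6.88 and 1.03 CPM in KC2 replicates 1 to 4. Set against a floor of 3 counts over the KC1 group, it was at least 128-fold higher in KC2 (adjusted p = 0.00121, edgeR). Without KC2 replicate 1 the bound was 69.8-fold (adjusted p = 0.000368, edgeR). Cd24a was at 5.39, 2.15, 2.68 and 1.11 CPM in KC1 and at 53.1, 92.5, 58.2 and 102 CPM in KC2. Its groups did not overlap, and the log2 fold change was 4.75 ± 0.42 (SE, adjusted p = 5.56e-06, edgeR), or 4.90 without KC2 replicate 1.

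Ly6d, at or near the floor in the liver cell libraries, was at 0.345, 0.522, 0.268 and 0.416 CPM in KC1 and at 47.1, 12.1, 30.8 and 11.6 CPM in KC2, a log2 fold change of 6.004 ± 0.58 (SE, adjusted p = 1.03e-05, edgeR). Sox9 was at 0.622, 0.196, 0.671 and 0.416 CPM in KC1 and at 19.3, 10.05, 9.15 and 3.10 CPM in KC2 (log2 4.43 ± 0.60, SE, adjusted p = 0.000103, edgeR). Spp1 was at 9.25, 14.1, 6.37 and 16.1 CPM in KC1 and at 736, 255, 419 and 153 CPM in KC2 (log2 5.09 ± 0.52, SE, adjusted p = 1.51e-05, edgeR). In all 3 genes every KC2 library lay above every KC1 library, and without KC2 replicate 1 the log2 fold changes were 5.52, 3.95 and 4.58.

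Prom1 was less clear. KC1 libraries held 0, 1.24, 0.335 and 0.624 CPM and KC2 libraries 11.5, 3.53, 0.999 and 1.03 CPM, so the groups overlapped. The log2 fold change of 2.93 ± 0.9998 (SE, adjusted p = 0.0262, edgeR) dropped to 1.72 without KC2 replicate 1 and no longer passed (adjusted p = 0.108), and the call was also lost without KC1 replicate 3 (adjusted p = 0.0744) or KC1 replicate 4 (adjusted p = 0.0587, edgeR for all). Gpc3 had 0 counts in KC1 and 0.451, 0.588, 0.777 and 0.791 CPM in KC2, at least 12.8-fold higher over the same floor. It was too low for the filter with all 8 libraries. It was called where it was tested, without the filter (adjusted p = 0.00354) and with a KC1 library or KC2 replicate 1 left out (adjusted p = 0.00146 to 0.00366, edgeR).

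Cd44 and Afp ran the other way. Cd44 was at 547, 669, 633 and 691 CPM in KC1 and at 119, 416, 224 and 381 CPM in KC2, a log2 fold change of -1.16 ± 0.33 (SE, adjusted p = 0.0111, edgeR) and of -0.90 without KC2 replicate 1. Afp was at 8.63, 5.02, 9.06 and 5.61 CPM in KC1 and at 1.96, 0.470, 2.55 and 0.851 CPM in KC2, or 4.86-fold lower (log2 -2.27 ± 0.49, SE, adjusted p = 0.00235, edgeR, and log2 -2.43 without KC2 replicate 1). Alb, its neighbour in the locus and a defining hepatocyte gene, stood at 19.7 ± 6.68 CPM in KC1 and 99.8 ± 33.6 CPM in KC2 (SD, n = 4). Hepatocyte markers did not move as one. Ttr, Apoa1, Serpina1a, Serpina1b, Cps1, Cyp2e1 and Hnf4a were also higher in mean level in KC2, while Apob, Tat, Fga and Fgb were lower. Fga and Fgb, the leading hepatocyte markers in KC1, were at 42.4 and 32.2 CPM there and at 12.4 and 7.77 CPM in KC2. Golm1 was at 32.2, 45.4, 24.9 and 27.6 CPM in KC1 and at 43.4, 32.5, 33.0 and 40.0 CPM in KC2. Its groups overlapped and the difference was not called (log2 0.19 ± 0.20, SE, adjusted p = 0.408, edgeR).

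Markers of other cell types moved with these results. Cholangiocyte markers summed to 3.26 to 10.01 CPM in KC1 and 71.9 to 173 CPM in KC2, endothelial markers to 346 to 481 and 6202 to 9174 CPM, lymphocyte markers to 7.97 to 13.6 and 153 to 667 CPM and neutrophil markers to 48.9 to 188 and 516 to 3988 CPM. Hepatocyte markers summed to 102 to 217 CPM in KC1 and 198 to 271 CPM in KC2, and stellate markers to 12.5 to 25.6 and 17.1 to 20.4 CPM. Of the 9 cholangiocyte markers, Cldn4 and Cftr were at 0 in KC1 and 0 markers were at 0 in KC2. Leading genes in KC2 were the endothelial Clec4g (4058 CPM), the neutrophil gene S100a9 (1083 CPM) and the B cell gene Cd79a (93.6 CPM), against 10.002, 43.7 and 2.37 CPM in KC1. The order of the 4 KC2 libraries was the same for Cd24a and the neutrophil sum, highest in replicate 4, then 2, 3 and 1. It was the same for Epcam, Ly6d, Spp1 and the lymphocyte and hepatocyte sums, highest in replicate 1, then 3, 2 and 4. Between KC1 and KC2, however, the hepatocyte sums overlapped, while Epcam, Ly6d and Spp1 did not. Sox9 had the order of the cholangiocyte sum, highest in replicate 1, then 2, 3 and 4. Prom1 had the order of the endothelial sum, highest in replicate 1, then 2, 4 and 3, though replicates 3 and 4 held 18 and 17 counts. Gpc3 had the order of the macrophage sum, highest in replicate 4, then 3, 2 and 1, though replicates 3 and 4 held 14 and 13 counts. Over both groups Gpc3 did not follow that sum. It had 0 counts in KC1, where macrophage markers summed to 36772 to 47193 CPM. The orders of Cd44, Afp and Golm1 matched no marker list. These orders describe 4 KC2 libraries, among which a match with some list is easy to reach, and the part of such cells in the results was not tested.

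**Figure D5:**
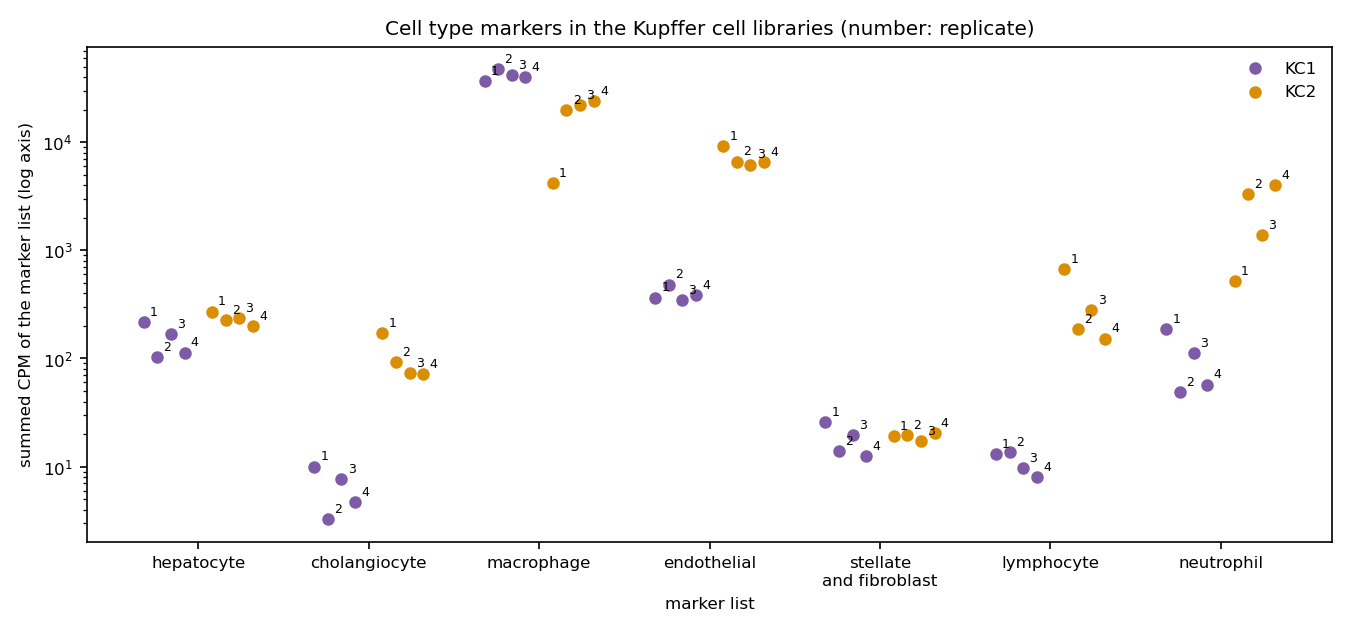
Summed CPM of each cell type marker list (vertical axis, log scale) in the 4 KC1 and 4 KC2 libraries; points are libraries and numbers the replicate. KC2 libraries are higher for cholangiocyte, endothelial, lymphocyte and neutrophil markers and lower for macrophage markers, with replicate 1 lowest at 4194 CPM.

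Around the markers, 15 of 16 biliary and progenitor genes were higher in KC2 and 1 lower, with a median log2 difference of 4.36 beside 0.03 over all genes. Over all tested genes, 31.9% were higher and 27.9% lower, and the counts of every list in this comparison stand beside these shares. Without KC2 replicate 1, 15 of 17 were higher and 1 lower. In the SOX9, Notch and YAP list, 13 of 16 were higher and 1 lower (0 lower without KC1 replicate 2, KC2 replicate 3 or KC2 replicate 4), led by Sox17 (101-fold), a factor of endothelial cells and bile ducts. The Sox17 fold is imprecise, as it rests on 14 counts over the KC1 group. For EpCAM partners the counts were 12 higher and 2 lower of 16, with the secretase Bace2 83.8-fold higher and the sheddase Adam17 1.98-fold lower. For the Ly6 family they were 9 and 3 of 14, with the endothelial lipase anchor Gpihbp1 at 921 CPM in KC2 against 6.67 CPM in KC1.

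Partners of CD44 and osteopontin showed 7 of 16 higher and 4 lower in KC2, with Mmp9 11.8-fold higher and Itgav, an integrin chain that binds osteopontin, 2.27-fold lower. Afp regulators showed 5 of 14 higher and 0 lower (1 lower without KC2 replicate 1), with Nr5a2, an activator of Afp, 26.1-fold higher. Glypicans and syndecans showed 4 of 12 higher and 4 lower, with Gpc4 19.1-fold higher and Sdc3 5.60-fold lower (206 against 1154 CPM). The Nr5a2 and Gpc4 folds are imprecise, as each rests on 17 counts over the KC1 group. Golgi genes showed 0 of 9 higher and 3 lower, with Golm2 1.95-fold lower, and the other oncofetal genes 2 of 4 higher and 2 lower, with Igf2bp2 8.58-fold lower. Without KC1 replicate 1 or KC1 replicate 3, 4 of 7 of these were higher and 2 lower.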

How the data were processed

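Poly(A)-selected, stranded libraries were made from TRIzol RNA, per the labels' protocols. The authors deposited expected counts per gene; the submitters' processing notes name FastQC, HISAT, RSEM and build mm10, without versions or roles. Neither the annotation nor the use of strand in counting is stated there. Every gene listed for early HCC has reads in some KO or WT library, so genes transcribed in normal liver alone are not shown. WT values were identical in both tables, which were joined by gene identifier, and 25 symbols that a spreadsheet had turned into dates were restored per table. Columns that could not be assigned numbered 0.

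Expected counts were rounded and fitted with edgeR 4.0.16 in R 4.3.3 (TMM, filterByExpr, quasi-likelihood F test): 1 fit of the 9 early HCC and normal liver libraries, and 1 of the 8 Kupffer libraries. P-values were adjusted by Benjamini-Hochberg over all genes passing the filter in the groups compared, and a call needs an adjusted p under 0.05. CPM use TMM-scaled library sizes. A group at 0 was set at 3 counts over the group, and a group with 1 to 3 counts is given by its counts. The fits were tested on simulated data. For KO against WT, 94% of 2-fold and 99% of 4-fold changes were recovered, with 3.0% of calls false. For KC2 against KC1 these shares were 45% and 98%, with 7.1% of calls false, so 2-fold changes can be missed there. Named genes are the 10 members, at most 2 called genes per direction and list with the largest change, leading cell type markers and the 2 genes nearest in pattern to 4 members. Some genes that this rule names are not reported here. Members and lists were chosen with earlier results of these data known. Alternatives were other scalings and filters, DESeq2 1.42.0, unrounded counts, 2 groups alone, a replicate block and leaving out each library.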

Additional observations from a re-analysis of the deposited data

How the results depend on the processing

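Over the alternatives run, the counts of members called and of all genes called stayed within 1.5 times the values given, and 410 of 415 member results kept direction and call. With each library left out, 5 to 6 members were called for KO against WT, 7 for both normal liver comparisons and 8 to 9 for KC2 against KC1. All genes called ranged over the left-out libraries from 7314 to 7565 for KO against WT, 11031 to 11154 for WT and 10908 to 11017 for KO against normal liver, and 7114 to 7804 for KC2 against KC1. The 5 results that lost their call were Afp for KO against WT without WT replicate 2 (log2 range over its 14 alternatives 0.13 to 0.24) and Prom1 in Kupffer cells in 4 settings (range 1.72 to 3.70). 1 of these was the replicate block (log2 2.34, adjusted p = 0.114, edgeR), under which 7 Kupffer cell members and 7287 genes were called. Elsewhere the block kept every member call, with 6, 7 and 7 members and 7754, 11123 and 11024 genes called for KO against WT, WT against normal and KO against normal. Same-numbered libraries deviated together in no comparison throughout (correlations -0.17 to 0.18). With so few libraries per group, these correlations cannot exclude that the numbers pair samples. Without a filter on low counts, Ly6d was higher in WT than in normal liver (log2 2.74, adjusted p = 0.0122, edgeR). Scaling by library totals alone moved the median of all genes in KC2 against KC1 from 0.03 to 0.27 and changed no member call. Of 513 list counts under alternatives, 486 stayed within 1.5 times in both directions; among the 27 others, biliary genes higher than in normal liver ranged from 2 to 6 in KO and from 1 to 5 in WT. Depth limits Prom1, Ly6d and Gpc3 in all 9 liver cell libraries and Sox9 in the early HCC libraries.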
